A study of Mus musculus with 24 samples.

Results

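Livers that had lost carnitine palmitoyltransferase 2 (Cpt2) were compared with control livers after a fast of 24 h, in 8 of the 24 RNA-seq libraries of the series. The libraries were chosen by their genotype labels, 4 from Cpt2 L-/- mice and 4 from control mice. All mice were males of 8 to 10 weeks on a C57BL/6 background. Cpt2 L-/- mice carried a floxed Cpt2 gene that Albumin-Cre deleted in hepatocytes. In the labels the 4 control libraries are wild type, whereas the animal methods of the study describe floxed controls without Cre, both of the Cpt2 line and as littermates with floxed Tsc1 and Cpt2, so the exact control genotype is not settled by the sources used here. The study also sequenced 4 livers each of Tsc1 L-/- mice, of mice lacking both Tsc1 and Cpt2 (DKO), of Ppara KO mice and of Cpt2 L-/- Ppara KO mice. These 16 libraries serve here for comparison.

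Cpt2 sits on the inner mitochondrial membrane and converts acylcarnitines back into acyl-CoAs, which is the last step of the route by which long-chain fatty acids enter the matrix for β-oxidation. In a fasted liver, fatty acids arrive from adipose tissue, β-oxidation of these fatty acids feeds the synthesis of ketone bodies, and the fatty acids themselves are ligands of the nuclear receptor Pparα. Pparα drives genes of mitochondrial and peroxisomal oxidation, lipid droplets and secreted factors such as Fgf21. Pieces of whole liver were sequenced, so fewer cells of a type and less RNA per cell cannot be told apart.

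Total counts were 17066401 to 18657651 per control library and 15974454 to 18461578 per Cpt2 L-/- library. Levels are given as CPM, which are counts divided by the library total and scaled by the TMM method of edgeR, and p-values are from the quasi-likelihood test of edgeR, adjusted by Benjamini-Hochberg over 13641 genes. "Called", "higher" and "lower" mean an adjusted p-value under 0.05. The log2 changes in brackets are from the same fit. Their standard errors (SE) were derived as the size of the log2 change divided by the square root of the F statistic of the test. Where levels are given without group names, the control livers come first, and each set of 4 values is in the order of replicates 1 to 4. The gene Cpt2 (ENSMUSG00000028607) lies on chromosome 4 from 107903981 to 107923610 (GRCm38). It was at 99.6, 99.3, 104 and 87.8 CPM in the 4 control livers and 93.2, 105, 80.3 and 90.6 CPM in the 4 Cpt2 L-/- livers. The groups overlapped (log2 change -0.11, SE 0.14, edgeR adjusted p = 0.605). A gene count adds up the reads of all exons, so it does not show whether a floxed exon is missing and does not check the labels. In the first 2 principal components of the 8 libraries, control livers lay between -49.0 and -38.9 and Cpt2 L-/- livers between 37.2 and 52.4 on the first component, which held 55.1% of the variance. The second component held 11.2% and set control replicates 1 and 2 (25.4 and 29.2) apart from control replicates 3 and 4 (-35.2 and -17.9). Some genes followed that split of the controls. Tat, the first enzyme of tyrosine breakdown, was at 5336, 4621, 1345 and 1345 CPM in control replicates 1 to 4 against 2407, 1883, 1600.2 and 1626 CPM in Cpt2 L-/- livers, and it was not called (edgeR adjusted p = 0.266).

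Of the 13641 genes, 31% were called between Cpt2 L-/- and control livers, 16.2% higher and 14.9% lower, and 1457 of the calls changed by 1 or more on the log2 scale (678 higher and 779 lower). The 4 and 4 livers did not overlap in 30.9% of genes, with 17.1% higher and 13.8% lower in every Cpt2 L-/- liver. The same deletion can be read in livers that share no library with these and that also lack Tsc1, by setting DKO against Tsc1 L-/- livers. There 32.2% of genes were called, 16.9% higher and 15.2% lower. Of the calls in Cpt2 L-/- livers, 56.1% were also called with the same sign between DKO and Tsc1 L-/- livers, which was 54.1% of the calls of that comparison. These were 1289 genes higher in both and 1086 lower in both, beside 49 genes called in opposite directions. Among the 1457 calls of at least 1 on the log2 scale, 67.2% were called with the same sign in both. Of the 4235 calls in Cpt2 L-/- livers, 89.2% had the same sign of the log2 fold change between DKO and Tsc1 L-/- livers, called or not. A test of the difference between the comparisons called 2.38% of genes, 1.09% with a positive and 1.28% with a negative difference. Gene lists are described below by how many tested members were called in each direction and by their median log2 fold change, which was -0.02 over all genes tested. Each count is to be read against the share of all genes, 16.2% higher and 14.9% lower. For DKO against Tsc1 L-/- livers these shares are 16.9% and 15.2%. The counts include genes that separated the libraries by sets of groups, which are described further below. Where leaving out a single library moved such a count by over 1.5 times, that count and the library, or the range over libraries, are given after it.

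**Figure D1:**
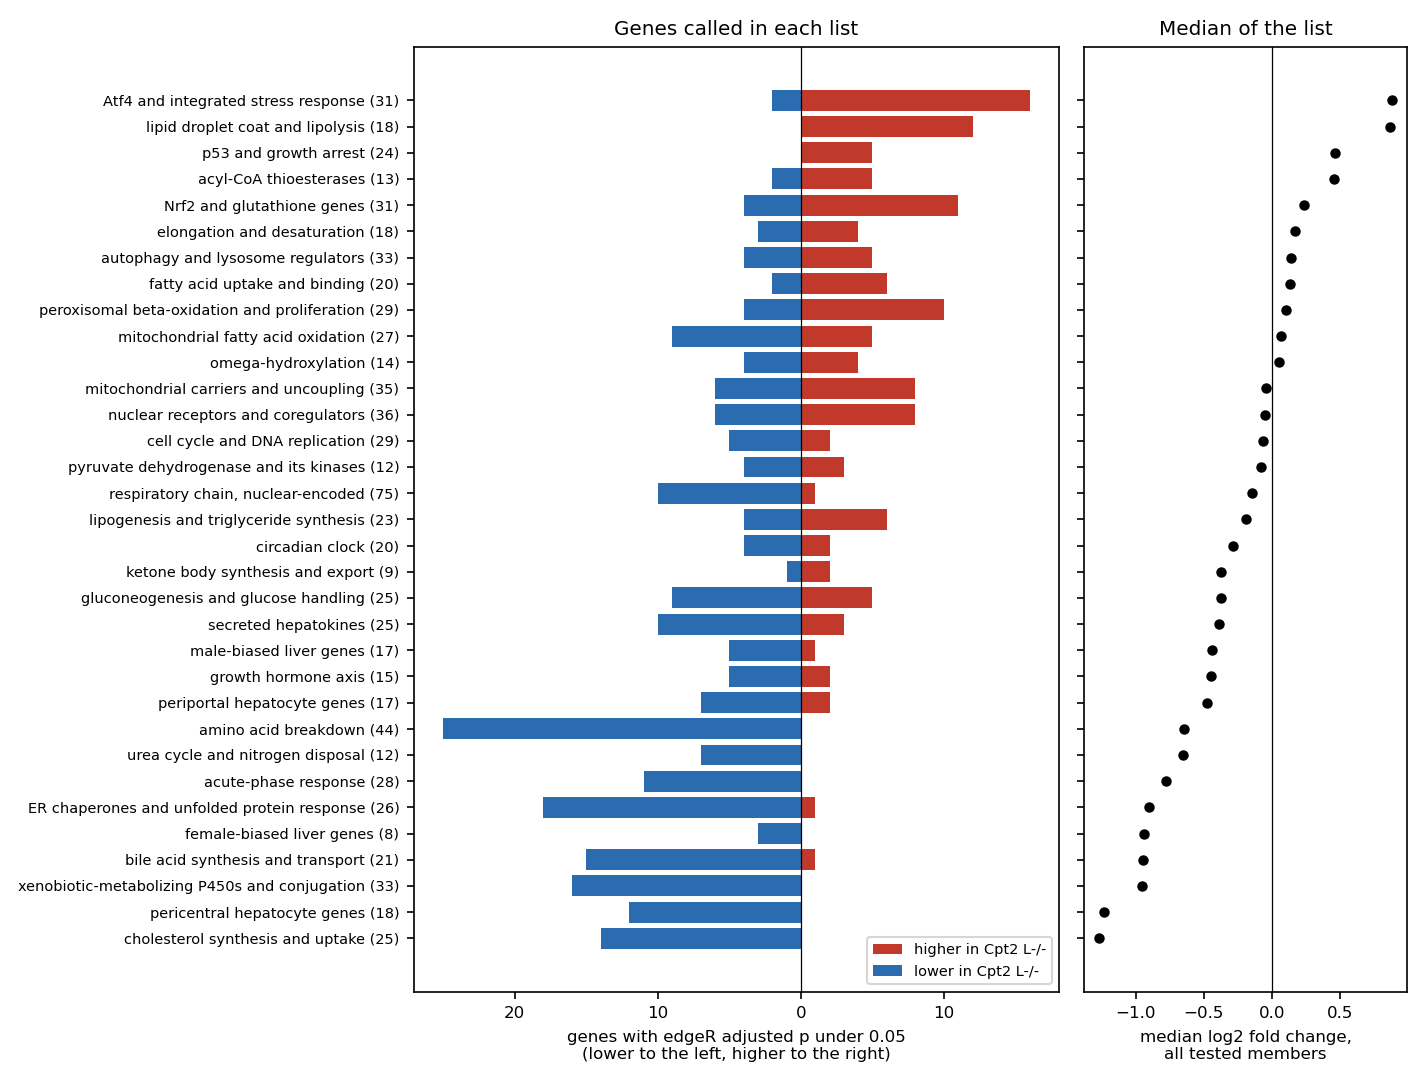
Number of genes called in each of 33 gene lists (left, red bars to the right for genes higher and blue bars to the left for genes lower in Cpt2 L-/- livers, with the number of tested genes in brackets) and the median log2 fold change of all tested members (right, points). The Atf4 list and the lipid droplet list lie at the top with medians of 0.88 and 0.87, and the cholesterol list lies at the bottom with a median of -1.27.

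Most genes of lipid droplets rose. In the list of droplet coat and lipolysis genes, 12 of 18 tested genes were higher, 0 were lower and 6 were not called (median log2 fold change 0.87), against 16.2% of all genes higher. Without Cpt2 L-/- replicate 2, in which markers of adipocytes were highest, 11 were higher and 0 lower. Plin2, which coats lipid droplets, was at 362, 473, 599 and 542 CPM in controls against 3135, 3069.6, 3002 and 3717 CPM in Cpt2 L-/- livers (log2 change 2.68, SE 0.26, edgeR adjusted p = 1.33e-06). Plin5, which ties droplets to mitochondria, was at 116, 112, 62.9 and 63.9 CPM in controls against 282, 316, 346 and 333 CPM in Cpt2 L-/- livers (log2 change 1.82, SE 0.21, edgeR adjusted p = 7.34e-06). Cidec, which promotes the growth of droplets by fusion, was at 31.2, 62.5, 28.6 and 60.3 CPM against 587, 681, 365 and 590.5 CPM (log2 change 3.58, SE 0.56, edgeR adjusted p = 0.000345). For these 3 genes each Cpt2 L-/- liver was above each control liver, and Cidec was on average 12.2-fold higher. Hilpda, an inhibitor of the lipase Atgl, went from 1.72, 2.16, 3.08 and 2.72 CPM to 19.2, 16.5, 11.99 and 19.9 CPM, also without overlap (log2 change 2.77, SE 0.28, edgeR adjusted p = 2.11e-06). In DKO against Tsc1 L-/- livers, the droplet list had 13 higher and 1 lower (median 1.20), and the log2 fold changes of Plin2, Plin5, Cidec and Hilpda were 3.10, 1.78, 4.06 and 2.38.

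The genes of mitochondrial β-oxidation did not move as a block. In that list, 5 of 27 tested genes were higher, against 16.2% of all genes, 9 were lower, against 14.9%, and 13 were not called (median log2 fold change 0.07). The number higher was 2 without Cpt2 L-/- replicate 2 or 3, and it was 3 without Cpt2 L-/- replicate 4 or without control replicate 1, 3 or 4. With limma on log2(FPKM + 1), 7 genes of the list were higher and 4 were lower. Cpt1a, the enzyme that makes acylcarnitines at the outer membrane, was at 1055, 1532, 1068 and 1391 CPM in controls against 1255, 1812, 1722 and 1813 CPM in Cpt2 L-/- livers, and it was not called (log2 change 0.36, SE 0.18, edgeR adjusted p = 0.143). Hadha, a subunit of the trifunctional protein for long-chain acyl-CoAs, was at 650.2, 893, 692 and 818 CPM against 812, 1078, 1118 and 1037 CPM and was not called either (log2 change 0.38, SE 0.17, edgeR adjusted p = 0.106). For both genes the groups overlapped, and both were called higher with limma on log2(FPKM + 1) (limma adjusted p = 0.0332 for Cpt1a and 0.0238 for Hadha). Crat, the carnitine acetyltransferase, had the largest rise of the list, from 75.1, 121, 114 and 110.4 CPM to 197, 255, 349 and 284 CPM (log2 change 1.34, SE 0.32, edgeR adjusted p = 0.00562). The largest falls were those of Acsm1 and Acsm5, which activate medium-chain fatty acids. Acsm1 was at 242, 262, 265 and 272 CPM in controls against 75.002, 90.6, 77.3 and 110.1 CPM in Cpt2 L-/- livers (log2 change -1.59, SE 0.23, edgeR adjusted p = 6.31e-05). Acsm5 was at 149, 129, 172 and 149 CPM against 53.97, 49.2, 67.8 and 52.1 CPM (log2 change -1.45, SE 0.15, edgeR adjusted p = 3.03e-06). Both were lower in every Cpt2 L-/- liver than in any control. Between DKO and Tsc1 L-/- livers the same list had 13 higher and 6 lower (median 0.48), and Hadha was called there (log2 fold change 1.01, edgeR adjusted p = 0.000278). The difference of the Hadha effect between the comparisons was not called (edgeR adjusted p = 0.1703).

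Of the ketone body genes, 2 of 9 tested genes were higher, 1 was lower and 6 were not called (median log2 fold change -0.38). Bdh1, which forms β-hydroxybutyrate from acetoacetate, was at 394, 419.9, 528 and 587 CPM against 197, 360.2, 355 and 279.9 CPM (log2 change -0.72, SE 0.21, edgeR adjusted p = 0.01502). Its call was lost without Cpt2 L-/- replicate 1 and without control replicate 4, with edgeR adjusted p-values of 0.0523 and 0.0606, which left 0 genes of the list lower, and 2 were lower without Cpt2 L-/- replicate 3 or control replicate 1. In an edgeR fit of the 8 libraries alone, 3 were lower. The monocarboxylate transporters rose: Slc16a1 was at 44.5, 58.96, 52.8 and 57.4 CPM in controls against 89.04, 87.2, 87.96 and 120.2 CPM in Cpt2 L-/- livers (log2 change 0.82, SE 0.16, edgeR adjusted p = 0.000799), and Slc16a6, which exports ketone bodies, was at 2.73, 2.16, 3.699 and 4.16 CPM against 9.45, 11.5, 7.38 and 16.7 CPM (log2 change 1.78, SE 0.31, edgeR adjusted p = 0.000277).

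In peroxisomes, 10 of 29 tested genes were higher, 4 were lower and 15 were not called (median log2 fold change 0.11). Pex11a, which takes part in peroxisome division, was at 161, 196, 241 and 204 CPM against 615, 604, 689.5 and 584 CPM (log2 change 1.61, SE 0.19, edgeR adjusted p = 7.04e-06). Ehhadh, the bifunctional enzyme of peroxisomal β-oxidation, was at 1994, 4065, 2633 and 4453 CPM against 8464, 9778, 10712 and 12461 CPM. All 4 Cpt2 L-/- livers lay above the controls for both genes. The call of Ehhadh (log2 change 1.63, SE 0.54, edgeR adjusted p = 0.0322) was lost when any of 4 single libraries was left out (edgeR adjusted p-values of 0.0552 to 0.0805). Not every peroxisomal gene rose: Pecr, which reduces trans-2-enoyl-CoAs, fell from 204, 141, 159 and 117 CPM to 31.9, 39.9, 43.6 and 34.3 CPM (log2 change -2.08, SE 0.27, edgeR adjusted p = 4.05e-05), and Abcd2, a transporter of very-long-chain acyl-CoAs, fell from 29.4, 36.9, 51.5 and 74.2 CPM to 10.04, 21.9, 23.8 and 13.3 CPM (log2 change -1.503, SE 0.31, edgeR adjusted p = 0.00181). In DKO against Tsc1 L-/- livers, the log2 fold change of Pex11a was 2.85, and it was larger than in Cpt2 L-/- livers by 1.24 (edgeR adjusted p = 0.01698).

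**Figure D2:**
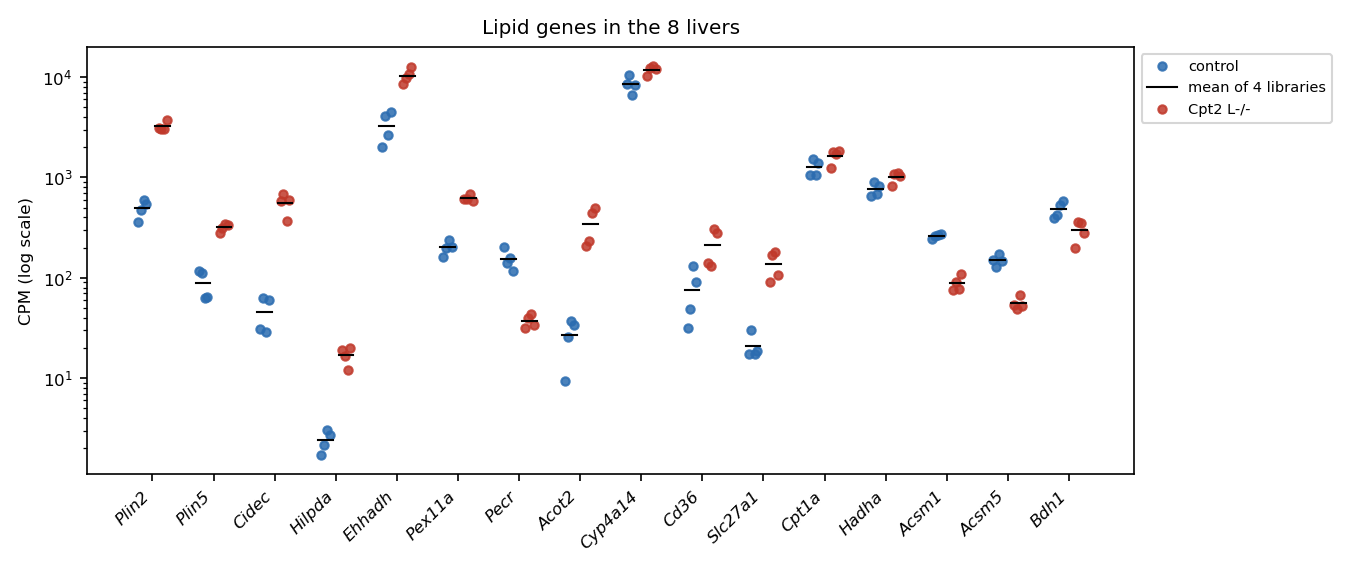
CPM on a log axis of 16 lipid genes in the 4 control livers (blue points) and the 4 Cpt2 L-/- livers (red points), with a bar at the mean of each group. Droplet genes such as Cidec and peroxisomal genes such as Pex11a were separated with Cpt2 L-/- livers above, Cpt1a and Hadha overlapped, and Acsm1 and Acsm5 were separated with Cpt2 L-/- livers below.

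Among the acyl-CoA thioesterases, which release free fatty acids from acyl-CoAs, 5 of 13 tested genes were higher, 2 were lower and 6 were not called (median log2 fold change 0.46). Without any single library other than Cpt2 L-/- replicates 3 and 4, 1 was lower. The mitochondrial Acot2 was at 9.33, 26.002, 37.6 and 34.2 CPM in controls against 208, 234, 445 and 498 CPM in Cpt2 L-/- livers (log2 change 3.66, SE 0.80, edgeR adjusted p = 0.00395). Acot11 fell from 4.22, 3.85, 4.37 and 4.91 CPM to 1.76, 1.84, 1.36 and 1.36 CPM (log2 change -1.48, SE 0.30, edgeR adjusted p = 0.001097). Neither gene overlapped between groups. Acot1, Acot2 and Acot3 are close paralogs, and how reads shared between them were counted is not given in the sources used here. For the fatty acid ω-hydroxylation genes, which lie in the endoplasmic reticulum, 4 of 14 tested genes were higher, 4 were lower and 6 were not called (median log2 fold change 0.05). Cyp4a10, a Pparα target with close paralogs, was at 4757, 6796, 2854 and 4664 CPM in controls against 5460.3, 6319, 7386 and 6695 CPM in Cpt2 L-/- livers (log2 change 0.41, SE 0.55, edgeR adjusted p = 0.614). Cyp4a14 was at 8489, 10472, 6571 and 8375 CPM against 10267, 12336, 12754 and 12121 CPM (log2 change 0.46, SE 0.45, edgeR adjusted p = 0.4801). Neither was called, and the groups overlapped for both. Their paralog Cyp4a32, expressed at lower CPM, was at 65.02, 74.9, 68.4 and 70.3 CPM in controls against 239.8, 271, 229.9 and 234 CPM in Cpt2 L-/- livers (log2 change 1.78, SE 0.29, edgeR adjusted p = 0.000246), while Cyp4f14 fell from 88.02, 79.2, 77.4 and 58.3 CPM to 22.3, 30.8, 24.2 and 36.99 CPM (log2 change -1.44, SE 0.36, edgeR adjusted p = 0.00758). Of the uptake and binding genes, 6 of 20 tested genes were higher, 2 were lower and 12 were not called (median log2 fold change 0.13), and 1 was lower without replicate 1 or 2 of either group. Slc27a1, a fatty acid transport protein mainly of muscle and fat, was at 17.4, 30.1, 17.3 and 18.7 CPM against 90.3, 167, 182 and 108 CPM (log2 change 2.68, SE 0.32, edgeR adjusted p = 2.53e-05). Cd36, a fatty acid translocase, was at 31.9, 49.2, 131 and 90.8 CPM in controls against 139, 131, 304 and 282 CPM in Cpt2 L-/- livers (log2 change 1.47, SE 0.47, edgeR adjusted p = 0.0289), but the call did not hold when any of 4 single libraries was left out (edgeR adjusted p-values of 0.0590 to 0.0759). Fabp1, the fatty acid binding protein of hepatocytes, was at 1749, 1878, 3044 and 2708 CPM against 1462, 2087, 2345 and 1985 CPM, with overlap and no call (log2 change -0.28, SE 0.26, edgeR adjusted p = 0.442).

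For elongation and desaturation, 4 of 18 tested genes were higher, against 16.2% of all genes, 3 were lower, against 14.9%, and 11 were not called (median log2 fold change 0.17). Tecr, among the 3 lower, separated the libraries by sets of groups and not by the state of Cpt2, as described below. The number higher was 2 without Cpt2 L-/- replicate 2 or 4 or control replicate 1 or 3, and 1 with all 24 libraries in 1 fit. Elovl6, the elongase of newly made fatty acids, fell from 23.4, 37.96, 34.1 and 33.1 CPM to 9.13, 14.7, 16.4 and 11.4 CPM (log2 change -1.34, SE 0.37, edgeR adjusted p = 0.0132). Scd1, the stearoyl-CoA desaturase, was at 659, 559.3, 543 and 223 CPM in controls against 205, 728, 774 and 792 CPM in Cpt2 L-/- livers, with replicate 1 of Cpt2 L-/- below the other 7 livers, and was not called (log2 change 0.30, SE 0.76, edgeR adjusted p = 0.802). In the list of lipogenesis and triglyceride synthesis, 6 of 23 tested genes were higher, against 16.2% of all genes, 4 were lower, against 14.9%, and 13 were not called (median log2 fold change -0.19). Fasn, the fatty acid synthase, was at 55.5, 151, 72.3 and 83.03 CPM against 52.5, 61.3, 74.1 and 61.8 CPM and was not called (log2 change -0.56, SE 0.50, edgeR adjusted p = 0.426). Called falls included Acss2, the cytosolic acetyl-CoA synthetase, from 84.8, 107, 64.5 and 78.4 CPM to 42.5, 43.7, 44.4 and 40.3 CPM (log2 change -0.997, SE 0.16, edgeR adjusted p = 0.000164). Pklr, the liver pyruvate kinase, fell from 62.7, 84.8, 127 and 129.8 CPM to 29.9, 31.4, 37.6 and 38.3 CPM (log2 change -1.58, SE 0.44, edgeR adjusted p = 0.0144). Acacb, whose malonyl-CoA inhibits Cpt1, rose from 58.01, 98.6, 37.1 and 65.98 CPM to 227, 227, 327 and 301 CPM (log2 change 2.03, SE 0.27, edgeR adjusted p = 4.20e-05). Mogat2, which makes diacylglycerol from monoacylglycerol, rested on 9 counts over the 4 control libraries and 182 over the 4 Cpt2 L-/- libraries, a ratio with a 95% counting interval of 10.3 to 44.5.

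Of the cholesterol list, 0 of 25 tested genes were higher, 14 were lower and 11 were not called (median log2 fold change -1.27), against 14.9% of all genes lower. Idi1, an isomerase of the pathway, was at 2.97, 66.5, 17.3 and 30.5 CPM against 3.36, 3.99, 3.31 and 3.18 CPM (log2 change -3.10, SE 0.77, edgeR adjusted p = 0.00843). Msmo1, a sterol demethylase, was at 19.97, 285, 56.9 and 120.2 CPM against 22.3, 22.6, 19.02 and 23.8 CPM (log2 change -2.48, SE 0.60, edgeR adjusted p = 0.00708). The spread was in the controls: control replicate 1 lay below all 4 Cpt2 L-/- livers for Idi1 and below 3 of them for Msmo1, and control replicate 2 was the highest for both genes. In DKO against Tsc1 L-/- livers, the cholesterol list had 1 higher and 3 lower (median -0.32), and Idi1 and Msmo1 were at log2 fold changes of -0.40 and -0.48, neither called (edgeR adjusted p = 0.709 and 0.565). The difference between the comparisons was not called for either gene (edgeR adjusted p = 0.186 and 0.205).

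In the list of bile acid synthesis and transport, 1 of 21 tested genes was higher, 15 were lower and 5 were not called (median log2 fold change -0.95). The number higher was 0 without Cpt2 L-/- replicate 3 or 4 or control replicate 1, 3 or 4. Cyp7a1, the rate-limiting enzyme of the classical pathway, was at 95.7, 438, 173 and 318 CPM in controls against 8.75, 13.1, 5.26 and 14.3 CPM in Cpt2 L-/- livers (log2 change -4.66, SE 0.72, edgeR adjusted p = 0.000368). Akr1d1, which reduces the sterol ring in the same pathway, was at 189, 192, 146 and 136 CPM against 7.37, 10.3, 11.2 and 5.63 CPM (log2 change -4.29, SE 0.38, edgeR adjusted p = 2.74e-06). No Cpt2 L-/- liver reached the lowest control for either gene, and Akr1d1 was on average 19.2-fold lower. Cyp7a1 was among the 12 largest falls, a set that took only genes without overlap. Cyp8b1, which sets the share of cholic acid, was at 629.9, 1434, 549 and 848 CPM against 841, 1015, 707 and 1124 CPM and was not called (log2 change 0.06, SE 0.33, edgeR adjusted p = 0.9104). Slco1a1, an organic anion transporter of male liver, fell from 211, 284, 339.8 and 284 CPM to 61.8, 56.7, 52.9 and 93.1 CPM (log2 change -2.11, SE 0.26, edgeR adjusted p = 2.09e-05). The list had 1 higher and 13 lower (median -0.77) between DKO and Tsc1 L-/- livers, where Cyp7a1 was at -4.19 and Akr1d1 at -4.84. Of the xenobiotic list, 0 of 33 tested genes were higher, 16 were lower and 17 were not called (median log2 fold change -0.95). Cyp2c38 was at 54.9, 137, 82.6 and 67.8 CPM in controls against 9.66, 8.62, 11.5 and 7.84 CPM in Cpt2 L-/- livers (log2 change -3.21, SE 0.38, edgeR adjusted p = 2.90e-05). Cyp3a11, a main drug-metabolizing P450, was at 2133, 2904, 2168 and 1539 CPM against 737, 822, 1244 and 1232 CPM (log2 change -1.15, SE 0.26, edgeR adjusted p = 0.00294). Cyp2b10, the classical target of the receptor Car, overlapped between the groups at 7.01, 9.66, 1.34 and 3.93 CPM against 12.1, 2.03, 10.8 and 3.98 CPM (log2 change 0.40, SE 0.62, edgeR adjusted p = 0.673). Members of the Cyp2c family are near-identical in places, so their counts are uncertain.

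Many genes that break down amino acids fell. Of the amino acid breakdown list, 0 of 44 tested genes were higher, 25 were lower and 19 were not called (median log2 fold change -0.65). Cth, which makes cysteine from cystathionine, was at 657, 672, 357 and 288 CPM against 132, 163, 89.4 and 81.4 CPM (log2 change -2.11, SE 0.36, edgeR adjusted p = 0.000500). It was lower in every Cpt2 L-/- liver than in any control. The list had 1 higher and 34 lower (median -0.94) between DKO and Tsc1 L-/- livers. In the list of urea cycle and nitrogen disposal, 0 of 12 tested genes were higher, 7 were lower and 5 were not called (median log2 fold change -0.65). Cps1, the entry enzyme of the urea cycle, was at 6426, 7685, 2759.5 and 3416 CPM in controls against 5615, 6153, 4629 and 4031 CPM in Cpt2 L-/- livers, with overlap (log2 change -0.02, SE 0.34, edgeR adjusted p = 0.976). Oat, the ornithine aminotransferase, fell from 1257, 1747, 1398 and 1595 CPM to 303, 691, 268 and 518 CPM (log2 change -1.78, SE 0.29, edgeR adjusted p = 0.000224).

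For gluconeogenesis and glucose handling, 5 of 25 tested genes were higher, 9 were lower and 11 were not called (median log2 fold change -0.38). The number higher was 3 without Cpt2 L-/- replicate 2 or control replicate 1. Pck1, the cytosolic gateway enzyme of gluconeogenesis, was at 5927, 5503, 4955 and 4934 CPM in controls against 4348, 4429, 4121 and 3930.1 CPM in Cpt2 L-/- livers and did not pass the test (log2 change -0.37, SE 0.16, edgeR adjusted p = 0.0966), whereas DESeq2 called it lower (DESeq2 adjusted p = 0.0388). G6pc, which releases free glucose, was at 458, 296, 353 and 295 CPM against 80.2, 129, 129 and 85.6 CPM (log2 change -1.75, SE 0.31, edgeR adjusted p = 0.000584). Gckr, the regulator that holds glucokinase in the nucleus, was at 150.1, 78.1, 159.9 and 93.96 CPM against 33.4, 35.1, 34.7 and 34.9 CPM (log2 change -1.83, SE 0.26, edgeR adjusted p = 8.42e-05). The Cpt2 L-/- livers were below all controls for these 3 genes. Pck2, the mitochondrial isoenzyme of Pck1, rose from 3.74, 4.25, 2.57 and 3.41 CPM to 18.5, 11.9, 8.74 and 18.6 CPM (log2 change 2.02, SE 0.33, edgeR adjusted p = 0.000250). Ppp1r3c, which targets a phosphatase to glycogen, was among the 12 largest falls, from 73.6, 52.1, 22.1 and 20.01 CPM to 1.55, 2.54, 2.13 and 1.82 CPM (log2 change -4.42, SE 0.73, edgeR adjusted p = 0.000586). In the list of pyruvate dehydrogenase and its regulators, 3 of 12 tested genes were higher, 4 were lower and 5 were not called (median log2 fold change -0.08), and 2 were lower without Cpt2 L-/- replicate 3 or 4 or control replicate 3. The kinases that inhibit the complex went in opposite directions: Pdk4 was at 12.5, 20.1, 22.8 and 13.1 CPM in controls against 512, 358, 656 and 670.1 CPM in Cpt2 L-/- livers, whereas Pdk1 was at 69.5, 92.2, 90.3 and 97.8 CPM against 40.4, 54.3, 63.2 and 45.01 CPM (log2 change -0.81, SE 0.19, edgeR adjusted p = 0.00313). Pdp1, the phosphatase that opposes them, was at 1.37, 1.69, 0.873 and 1.39 CPM against 3.203, 3.17, 3.13 and 4.26 CPM (log2 change 1.35, SE 0.25, edgeR adjusted p = 0.000476).

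For Atf4 and the integrated stress response, 16 of 31 tested genes were higher, 2 were lower and 13 were not called (median log2 fold change 0.88), and without any 1 of the 8 libraries 1 was lower. Atf4, the transcription factor of this response, was at 73.2, 72.2, 72.5 and 77.7 CPM in controls against 162, 107, 94.3 and 154 CPM in Cpt2 L-/- livers (log2 change 0.78, SE 0.17, edgeR adjusted p = 0.00162). Atf3, a factor downstream of it, was at 0.416, 2.09, 1.18 and 1.62 CPM against 34.8, 22.8, 26.8 and 54.7 CPM (log2 change 4.69, SE 0.76, edgeR adjusted p = 0.000461). Slc7a11, the cystine importer, had 0 counts in the 4 control libraries and was at 0.907, 0.761, 1.95 and 10.1 CPM in the Cpt2 L-/- livers. Set against 3 counts over the control group, it was at least 78.9-fold higher, and replicate 4 held 177 of its 239 counts. Some members were not called. Asns, the asparagine synthetase, was at 7.13, 7.23, 1.08 and 3.82 CPM against 6.94, 7.61, 4.67 and 10.4 CPM (log2 change 0.61, SE 0.69, edgeR adjusted p = 0.549), and Trib3, a pseudokinase induced by Atf4, was at 10.6, 16.8, 12.4 and 19.3 CPM against 37.5, 28.02, 32.7 and 65.4 CPM without overlap but also without a call (log2 change 1.44, SE 0.69, edgeR adjusted p = 0.132). Trib3 was called in an edgeR fit of the 8 libraries alone (edgeR adjusted p = 0.0039). Cth, itself a member, fell as given above, and Slc7a11 was not called between DKO and Tsc1 L-/- livers (edgeR adjusted p = 0.367). The counts for the Atf4 list between DKO and Tsc1 L-/- livers were 12 higher and 1 lower (median 0.79). Of the chaperone list, 1 of 26 tested genes was higher, 18 were lower and 7 were not called (median log2 fold change -0.90). Hspa5, the major chaperone of this compartment, was at 790.03, 1093, 575 and 720.1 CPM in controls against 403, 302, 328 and 472.2 CPM in Cpt2 L-/- livers (log2 change -1.11, SE 0.22, edgeR adjusted p = 0.00106). Sdf2l1, a partner of Hspa5, was at 30.5, 33.2, 14.5 and 16.3 CPM against 5.07, 2.79, 3.13 and 7.33 CPM (log2 change -2.39, SE 0.40, edgeR adjusted p = 0.000411). The member that rose was Eif2ak3, the kinase Perk that acts upstream of Atf4, from 20.6, 24.99, 16.8 and 22.96 CPM to 57.8, 42.02, 42.003 and 63.98 CPM (log2 change 1.24, SE 0.17, edgeR adjusted p = 3.15e-05). In DKO against Tsc1 L-/- livers, the chaperone list had 1 higher and 12 lower (median -0.44), and Hspa5 was not called (log2 fold change -0.19, edgeR adjusted p = 0.544).

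Of the Nrf2 and glutathione genes, 11 of 31 tested genes were higher, 4 were lower and 16 were not called (median log2 fold change 0.24). Cbr3, a carbonyl reductase, was at 1.19, 1.01, 0.565 and 1.099 CPM in controls against 11.1, 11.6, 13.5 and 22.05 CPM in Cpt2 L-/- livers (log2 change 3.88, SE 0.42, edgeR adjusted p = 6.05e-06). Hmox1, the heme oxygenase, was at 19.1, 15.5, 10.2 and 13.1 CPM against 99.99, 44.1, 70.7 and 79.6 CPM (log2 change 2.32, SE 0.26, edgeR adjusted p = 1.04e-05). Both were separated between the groups. The rise of Hmox1 was smaller between DKO and Tsc1 L-/- livers, at 0.77, with a difference of -1.55 (edgeR adjusted p = 0.0314). Gsta3, a glutathione transferase, fell from 881, 771, 1096 and 744 CPM to 246, 259, 259.8 and 208 CPM (log2 change -1.87, SE 0.27, edgeR adjusted p = 5.74e-05). Sqstm1, the autophagy receptor p62 and a target of Nrf2, rose from 572, 729, 505 and 648 CPM to 1815, 1333, 1398 and 2186 CPM (log2 change 1.43, SE 0.26, edgeR adjusted p = 0.000556). In the autophagy and lysosome list that holds it, 5 of 33 tested genes were higher, against 16.2% of all genes, 4 were lower, against 14.9%, and 24 were not called (median log2 fold change 0.14). Of that list, 3 were higher without Cpt2 L-/- replicate 1 or 4 or control replicate 3, and 2 were lower without Cpt2 L-/- replicate 1 or control replicate 2. In the p53 and growth arrest list, 5 of 24 tested genes were higher, against 16.2% of all genes, 0 were lower, against 14.9%, and 19 were not called (median log2 fold change 0.46). Btg2, an antiproliferative gene, was at 20.7, 28.7, 8.37 and 14.6 CPM against 74.6, 70.99, 33.8 and 76.5 CPM (log2 change 1.80, SE 0.41, edgeR adjusted p = 0.00482). Cdkn1a, the cell cycle inhibitor p21, was at 49.7, 54.1, 4.73 and 8.095 CPM in controls against 129.99, 72.4, 61.1 and 115 CPM in Cpt2 L-/- livers, without overlap and without a call (log2 change 1.67, SE 0.69, edgeR adjusted p = 0.0838). It was called higher with DESeq2 (DESeq2 adjusted p = 0.0432) and with limma (limma adjusted p = 0.0154). Of the cell cycle list, 2 of 29 tested genes were higher, against 16.2% of all genes, 5 were lower, against 14.9%, and 22 were not called (median log2 fold change -0.06). Here 1 was higher without replicate 1 of either group, Cpt2 L-/- replicate 4 or control replicate 2, and 3 were lower without Cpt2 L-/- replicate 1 or 3. Tk1, the thymidine kinase, fell from 32.98, 17.96, 34.9 and 22.6 CPM to 4.004, 3.42, 6.44 and 3.98 CPM (log2 change -2.63, SE 0.27, edgeR adjusted p = 3.02e-06), and E2f1, which drives entry into S phase, from 1.84, 1.96, 3.39 and 2.95 CPM to 0.4804, 1.46, 0.591 and 0.568 CPM (log2 change -1.75, SE 0.37, edgeR adjusted p = 0.00142).

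**Figure D3:**
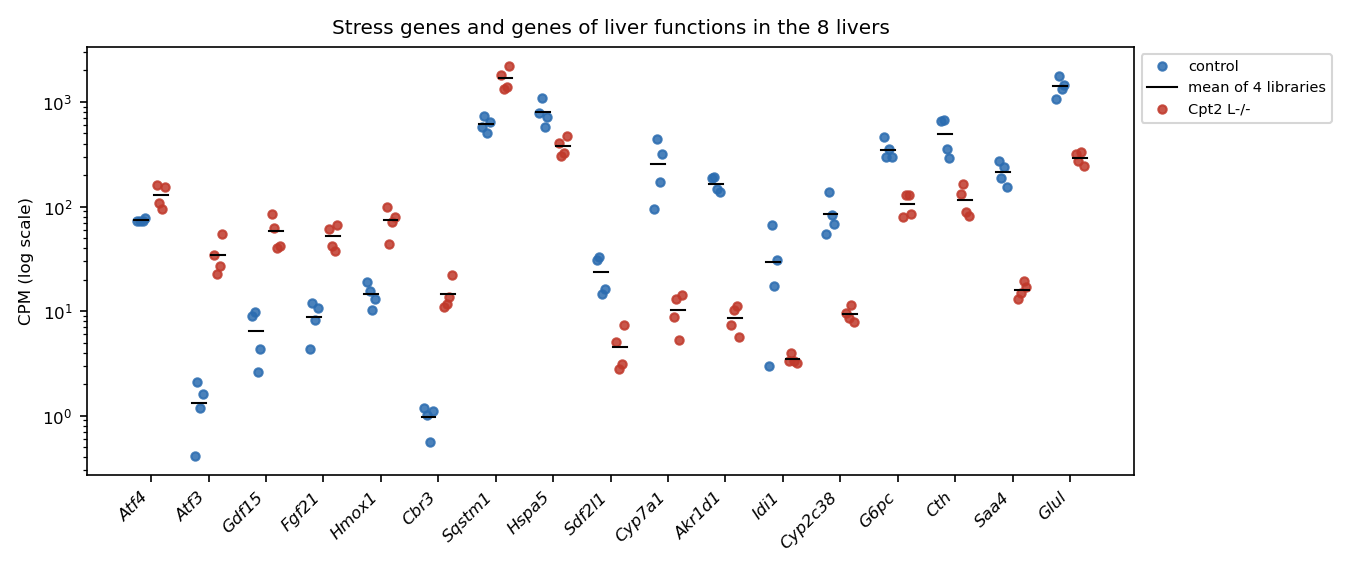
CPM on a log axis of 17 genes of stress responses and liver functions in the 4 control livers (blue points) and the 4 Cpt2 L-/- livers (red points), with a bar at the mean of each group. Atf4, Atf3, Gdf15, Fgf21, Hmox1, Cbr3 and Sqstm1 lay higher in Cpt2 L-/- livers, and the genes from Hspa5 to Glul lay lower, except that control replicate 1 of Idi1, at 2.97 CPM, was below the Cpt2 L-/- livers.

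Of 25 tested genes of secreted hepatokines, 3 were higher, against 16.2% of all genes, and 10 were lower, against 14.9% of all genes, with a median log2 fold change of -0.38. Gdf15, a stress hormone that reduces food intake, was at 8.97, 9.73, 2.62 and 4.34 CPM in controls against 85.7, 62.9, 40.1 and 42.2 CPM in Cpt2 L-/- livers (log2 change 3.16, SE 0.52, edgeR adjusted p = 0.000486). Fgf21, a fasting hormone under Pparα and Atf4, was at 4.34, 12.02, 8.22 and 10.7 CPM against 61.1, 41.9, 37.7 and 66.7 CPM. Angptl4, an inhibitor of lipoprotein lipase and a Pparα target, was at 252, 260.02, 251 and 164 CPM against 242, 239, 228 and 204 CPM, with overlap (log2 change -0.05, SE 0.16, edgeR adjusted p = 0.857). Enho, which encodes adropin, fell from 52.7, 50.9, 13.1 and 24.9 CPM to 2.94, 5.705, 1.595 and 3.01 CPM (log2 change -3.45, SE 0.45, edgeR adjusted p = 6.82e-05). Lect2 fell from 56.2, 62.5, 105 and 93.2 CPM to 12.9, 23.1, 12.6 and 21.1 CPM (log2 change -2.21, SE 0.42, edgeR adjusted p = 0.00121). No Cpt2 L-/- liver overlapped the controls for Gdf15, Fgf21, Enho or Lect2.

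The promoters of the named genes were read for motifs of the factors named above. RefSeq gives, for GRCm38.p6, a window that begins 250 bases before each start site, and only those 250 bases were searched, on both strands. The direct repeat of AGGTCA with a spacer of 1 base (DR1), which Pparα binds with its partner Rxr, matched on either strand with at least 11 of its 12 defined letters in 0.484% of 32851 windows. The motif TGATGNAAT of Atf4 with C/EBP factors matched in 0.816% of them. Of the 60 named genes called higher, 45 had a window, of which 1 (Gdf15) held the repeat and 3 held the Atf4 motif (Fgf21, Nrip1 and Hsd17b13). Of the 74 named genes called lower, 56 had a window, 1 (Slco1a1) held the repeat and 1 (Nr5a2) held the Atf4 motif. Fabp1, which was not called, also held the repeat. The windows of Fgf21, Gdf15, Slco1a1 and Fabp1 are shown because they hold a match in genes that rose, fell and were not called. Capitals mark the match, and each window is written 5′ to 3′ on the strand of its gene (chr7:45615491-45615740, minus strand, chr8:70632457-70632706, minus strand, chr6:141946963-141947212, minus strand, and chr6:71199629-71199878, plus strand).
Fgf21: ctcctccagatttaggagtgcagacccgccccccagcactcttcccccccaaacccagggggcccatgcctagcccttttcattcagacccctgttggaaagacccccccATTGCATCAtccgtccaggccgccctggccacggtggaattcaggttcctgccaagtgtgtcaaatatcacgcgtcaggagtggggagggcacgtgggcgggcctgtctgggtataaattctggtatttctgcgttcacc
Gdf15: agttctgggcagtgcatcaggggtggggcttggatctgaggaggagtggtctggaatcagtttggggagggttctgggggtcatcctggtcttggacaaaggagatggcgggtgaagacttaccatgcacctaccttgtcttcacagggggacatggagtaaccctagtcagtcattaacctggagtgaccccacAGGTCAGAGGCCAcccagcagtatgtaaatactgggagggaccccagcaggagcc
Slco1a1: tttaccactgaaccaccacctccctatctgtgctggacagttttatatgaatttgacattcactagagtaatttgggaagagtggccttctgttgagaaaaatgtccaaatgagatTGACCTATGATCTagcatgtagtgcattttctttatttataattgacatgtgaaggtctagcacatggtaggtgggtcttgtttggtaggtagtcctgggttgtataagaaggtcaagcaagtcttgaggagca
Fabp1: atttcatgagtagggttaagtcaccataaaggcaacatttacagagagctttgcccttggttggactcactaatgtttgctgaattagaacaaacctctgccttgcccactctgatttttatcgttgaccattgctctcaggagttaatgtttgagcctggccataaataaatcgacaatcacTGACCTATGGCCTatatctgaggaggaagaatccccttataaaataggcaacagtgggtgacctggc
The match in Fgf21 is the Atf4 motif on the opposite strand, and the matches in the other 3 windows are the repeat with 1 letter changed. A match describes these letters and not a bound site.

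The 12 largest rises under a common rule included genes that are rare in control liver. Fabp3, the fatty acid binding protein of heart and muscle, had 1 count over the 4 control libraries and 432 over the 4 Cpt2 L-/- libraries, a ratio with a 95% counting interval of 76.4 to 16943. Ucp3, the uncoupling protein of muscle, had 2 and 322 counts (interval 43.8 to 1323). Aim1l had 3 and 246 (interval 27.5 to 397). These 3 genes were thus near 0 in controls and present at 6.14, 6.15, 8.51 and 4.32 CPM for Fabp3, 3.31, 5.96, 4.25 and 5.34 CPM for Ucp3 and 3.47, 3.68, 2.84 and 4.26 CPM for Aim1l in Cpt2 L-/- livers. Dlgap2, Rbm24, Aqp3, Mpp3 and Nrg1 rose from means of at most 0.219 CPM to means of 2.38 to 7.34 CPM. Aqp3 is a glycerol channel, and it was at 0.238, 0.135, 0.103 and 0.116 CPM in controls against 3.52, 5.197, 10.1 and 2.103 CPM in Cpt2 L-/- livers. Nrg1, a ligand of ErbB receptors, was at 0.0594, 0.135, 0.0514 and 0.463 CPM against 6.46, 3.42, 3.19 and 6.71 CPM. In DKO against Tsc1 L-/- livers, Fabp3, Ucp3, Dlgap2, Rbm24, Aqp3, Mpp3 and Nrg1 were called higher too, and Aim1l was not (log2 fold change 1.19, edgeR adjusted p = 0.15003, with a difference of -4.89, edgeR adjusted p = 0.0153). Intervals cover counting error only.

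Among the 12 largest falls were Akr1c6, a hydroxysteroid dehydrogenase, and Serpina6, which encodes the corticosteroid-binding globulin of plasma. Akr1c6 was at 475, 476, 767 and 596 CPM in controls against 28.5, 14.8, 22.8 and 25.8 CPM in Cpt2 L-/- livers (log2 change -4.68, SE 0.52, edgeR adjusted p = 2.15e-05). Serpina6 was at 83.03, 71.5, 240.003 and 159 CPM against 3.36, 6.402, 7.27 and 7.16 CPM (log2 change -4.54, SE 0.59, edgeR adjusted p = 8.86e-05). Lrtm1 was at 21.2, 13.6, 14.6 and 9.54 CPM against 0.534, 0.507, 0.177 and 0.796 CPM (log2 change -4.88, SE 0.55, edgeR adjusted p = 1.17e-05). The rule took only genes without overlap. These 3 were called lower between DKO and Tsc1 L-/- livers as well, at -2.73, -5.14 and -3.53. Mycn, a member of the Myc family, had 140 counts over the control libraries and 4 over the Cpt2 L-/- libraries, a ratio with a counting interval of 0.00761 to 0.0741. Ankrd55 was at 3.804, 4.59, 14.5 and 13.1 CPM against 0.4804, 0.127, 0.295 and 0.341 CPM, and its call (log2 change -4.83, SE 1.48, edgeR adjusted p = 0.0259) was lost when any of 6 single libraries was left out (edgeR adjusted p-values of 0.0535 to 0.0652).

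Of 75 nuclear-encoded respiratory chain genes, 1 was higher, against 16.2% of all genes, and 10 were lower, against 14.9% of all genes, with a median of -0.15, and the number lower ran from 0 with all 24 libraries in 1 fit to 21 without Cpt2 L-/- replicate 2. It was 3 without control replicate 1, 4 without Cpt2 L-/- replicate 4 and 5 without Cpt2 L-/- replicate 3 or control replicate 2 or 4. Cycs, cytochrome c, was the gene that rose, and its call was lost with all 24 libraries in 1 fit (edgeR adjusted p = 0.165). It was at 114, 122, 117 and 124 CPM in controls against 163, 199.8, 151 and 161 CPM in Cpt2 L-/- livers (log2 change 0.47, SE 0.11, edgeR adjusted p = 0.00383). In the list of mitochondrial carriers and uncoupling proteins, 8 of 35 tested genes were higher, against 16.2% of all genes, 6 were lower, against 14.9%, and 21 were not called (median log2 fold change -0.05). Ucp2 was at 58.2, 75.2, 44.5 and 44.9 CPM against 128, 130.1, 138 and 129 CPM (log2 change 1.21, SE 0.18, edgeR adjusted p = 8.37e-05), and Slc25a23, a carrier of ATP-Mg and phosphate, fell from 241, 194, 229 and 173 CPM to 52.7, 57.8, 73.4 and 56.1 CPM (log2 change -1.83, SE 0.17, edgeR adjusted p = 9.71e-07). Both were separated between the groups. Among nuclear receptors and coregulators, 8 of 36 tested genes were higher, against 16.2% of all genes, 6 were lower, against 14.9%, and 22 were not called (median log2 fold change -0.05). The number higher was 5 without Cpt2 L-/- replicate 3 or 4 or control replicate 4, and 3 were lower without Cpt2 L-/- replicate 1 or 4 or control replicate 4. Ppara itself overlapped, at 213, 260.2, 274 and 276 CPM in controls against 273, 308, 385 and 312 CPM in Cpt2 L-/- livers. Pparg, the receptor of fat cells, was at 8.32, 14.3, 17.6 and 19.4 CPM against 21.3, 21.99, 21.3 and 27.6 CPM, and its call (log2 change 0.60, SE 0.21, edgeR adjusted p = 0.0336) was lost when any of 3 single libraries was left out (edgeR adjusted p-values of 0.0542 to 0.101). For clock genes, 2 of 20 tested genes were higher, against 16.2% of all genes, 4 were lower, against 14.9%, and 14 were not called (median log2 fold change -0.29). Per2 overlapped at 46.7, 23.5, 44.4 and 34.3 CPM against 19.5, 28.1, 39.2 and 19.04 CPM (log2 change -0.52, SE 0.36, edgeR adjusted p = 0.295), and Bhlhe41, a repressor of the clock, was at 1.31, 2.36, 4.06 and 8.56 CPM in controls against 13.7, 15.02, 13.6 and 19.5 CPM in Cpt2 L-/- livers (log2 change 1.89, SE 0.53, edgeR adjusted p = 0.0142).

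Of the acute-phase genes, 0 of 28 tested genes were higher, 11 were lower and 17 were not called (median log2 fold change -0.78), and 2 were higher without control replicate 1. Saa4, a constitutive serum amyloid with close paralogs, was at 274, 188, 238 and 154 CPM in controls against 13.1, 14.8, 19.3 and 17.2 CPM in Cpt2 L-/- livers (log2 change -3.76, SE 0.53, edgeR adjusted p = 0.000166). Serpina3m was at 332, 263, 239.7 and 271 CPM against 31.2, 68.5, 91.7 and 39.9 CPM (log2 change -2.29, SE 0.42, edgeR adjusted p = 0.000937). The acute-phase list had 0 higher and 16 lower (median -1.32) between DKO and Tsc1 L-/- livers. In the growth hormone list, 2 of 15 tested genes were higher, 5 were lower and 8 were not called (median log2 fold change -0.45), and 1 was higher without Cpt2 L-/- replicate 4. Igf1 overlapped at 542, 485, 505 and 433 CPM against 319, 401, 361 and 439 CPM and was not called (log2 change -0.40, SE 0.18, edgeR adjusted p = 0.09701), but it was called lower in an edgeR fit of the 8 libraries alone (edgeR adjusted p = 0.0337). Cux2, a factor of female liver, was at 22.4, 11.4, 5.702 and 6.48 CPM in controls against 0.907, 0.127, 0.827 and 0.455 CPM in Cpt2 L-/- livers (log2 change -4.30, SE 1.06, edgeR adjusted p = 0.00816). Its call was lost with limma on log2(FPKM + 1) (log2 change -1.19, limma adjusted p = 0.0593). Of the male-biased liver genes, 1 of 17 tested genes was higher, 5 were lower and 11 were not called (median log2 fold change -0.44), and of the female-biased genes, 0 of 8 tested genes were higher, 3 were lower and 5 were not called (median log2 fold change -0.94). Of the male-biased genes, 2 were lower without Cpt2 L-/- replicate 3 or control replicate 2, 3 were lower without Cpt2 L-/- replicate 2 or control replicate 4, and 0 were higher without Cpt2 L-/- replicate 1 or 4 or control replicate 3 or 4. Susd4, a male-biased gene, fell from 44.2, 56.5, 26.9 and 43.1 CPM to 14.5, 7.48, 5.38 and 11.5 CPM (log2 change -2.16, SE 0.39, edgeR adjusted p = 0.000860).

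Hepatocytes around the central vein and around the portal vein express different genes. Of the pericentral list, 0 of 18 tested genes were higher, 12 were lower and 6 were not called (median log2 fold change -1.23), and of the periportal list, 2 of 17 tested genes were higher, 7 were lower and 8 were not called (median log2 fold change -0.47). Of the periportal list, 4 were lower without Cpt2 L-/- replicate 3 or 4, without control replicate 1 or 2 and with all 24 libraries in 1 fit, and 1 was higher without Cpt2 L-/- replicate 2 or control replicate 1 or 3. The summed level of the pericentral genes was 17859 to 20258 CPM in controls against 7419 to 10396 CPM in Cpt2 L-/- livers, and that of the periportal genes was 20032 to 33276 CPM in controls against 24949 to 32083 CPM in Cpt2 L-/- livers. The sums of the pericentral genes did not overlap and those of the periportal genes did. Most of the pericentral sum in each liver was Cyp2e1, whose levels are given below. Glul, the glutamine synthetase of the innermost pericentral cells, was at 1074, 1789, 1341 and 1460.02 CPM in controls against 321, 272, 331 and 243 CPM in Cpt2 L-/- livers (log2 change -2.30, SE 0.20, edgeR adjusted p = 7.86e-07). Slc1a2, the glutamate transporter of the same cells, was at 242, 299, 313 and 266 CPM against 28.8, 26.5, 33.2 and 42.5 CPM (log2 change -3.12, SE 0.18, edgeR adjusted p = 7.98e-09). Lgr5, a receptor of Wnt signaling, was at 5.41, 6.42, 7.45 and 12.3 CPM against 0.801, 1.08, 1.77 and 2.103 CPM (log2 change -2.48, SE 0.41, edgeR adjusted p = 0.000205), and Cyp2e1, an abundant pericentral P450, was at 12436, 12584, 13308 and 13226 CPM against 5221, 6765, 8158 and 5891 CPM (log2 change -1.01, SE 0.18, edgeR adjusted p = 0.000448). All 4 genes were separated between the groups. In DKO against Tsc1 L-/- livers, the pericentral list had 0 higher and 6 lower (median -0.49) and the periportal list had 1 higher and 13 lower (median -1.60), so the median of the periportal list was the lower one there. Glul and Slc1a2 did not pass the test between those groups. In Tsc1 L-/- livers Glul was at 708, 972, 1268 and 1268 CPM and in DKO livers at 954, 848, 717 and 968 CPM, and Slc1a2 was at 215, 184, 279 and 292 CPM against 229.8, 172, 194 and 197 CPM. The difference between the comparisons was 2.02 for Glul (edgeR adjusted p = 0.000892) and 2.83 for Slc1a2 (edgeR adjusted p = 3.60e-06), and it was not called for Lgr5 (edgeR adjusted p = 0.603) or Cyp2e1 (edgeR adjusted p = 0.133). Cyp2f2, a periportal P450, fell from 479.7, 432, 313 and 334 CPM to 169, 164, 217 and 214 CPM (log2 change -1.06, SE 0.19, edgeR adjusted p = 0.000331), and by more between DKO and Tsc1 L-/- livers (-2.44, difference -1.38, edgeR adjusted p = 0.0105).

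**Figure D4:**
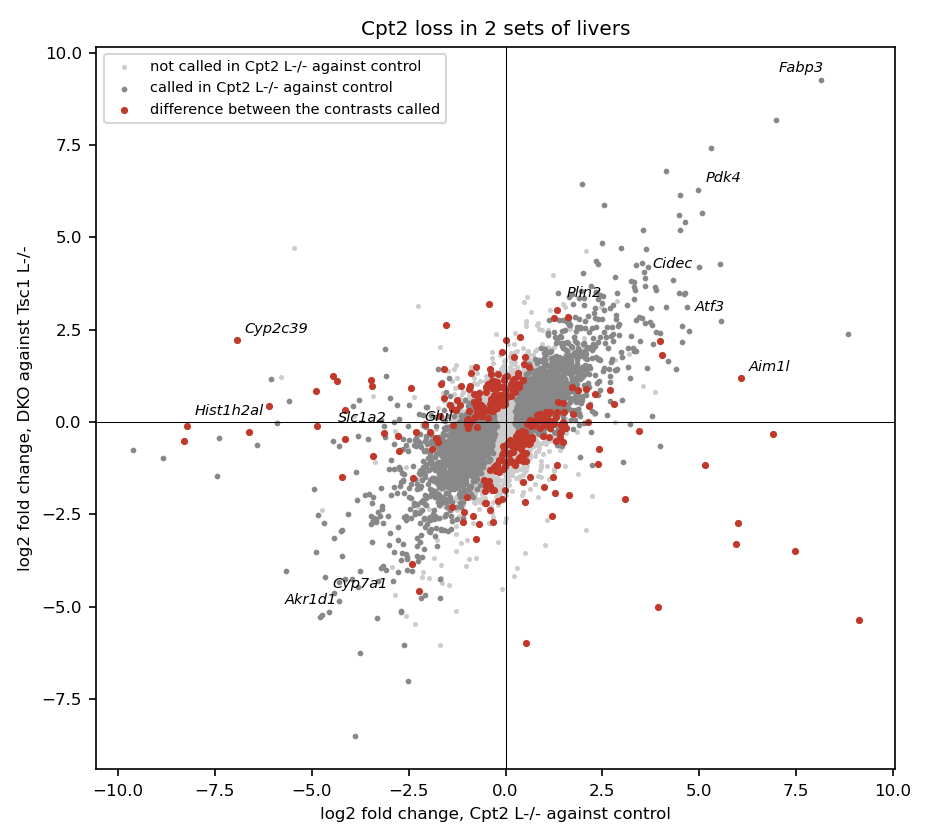
Log2 fold change between Cpt2 L-/- and control livers (horizontal) and between DKO and Tsc1 L-/- livers (vertical) of the 13641 genes tested, with genes called in the first comparison in dark gray and the 324 genes whose difference between the comparisons was called in red. Plin2, Cidec, Pdk4 and Atf3 lie in the upper right and Cyp7a1 and Akr1d1 in the lower left, while Glul, Slc1a2, Hist1h2al and Cyp2c39 lie to the left with a vertical value near or above 0.

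Some genes separated the libraries by sets of groups and not by the state of Cpt2. In 51 genes, all 12 libraries of the Cpt2 L-/-, Ppara KO and Cpt2 L-/- Ppara KO groups were below all 12 libraries of the control, Tsc1 L-/- and DKO groups, and in 42 genes they were above them. Of these 93 genes, 50 and 38 were called between Cpt2 L-/- and control livers. The DKO livers had lost Cpt2 and the Ppara KO livers had not. The control and Cpt2 L-/- groups lie on opposite sides of this split. Their comparison alone therefore cannot tell loss of Cpt2 from a difference between the 2 sets of groups. This holds for every call in it, in these 93 genes or in others. Any difference of it from the other comparisons is limited in the same way. The Tsc1 L-/- and DKO groups lie on 1 side, and both groups without Ppara on the other. The comparison of DKO with Tsc1 L-/- livers does not cross the split. Of the calls between Cpt2 L-/- and control livers, 56.1% were also called there with the same sign. How much of a call comes from the split was not tested. The 93 genes included 3 of the 12 largest falls. Hist1h2al was at 34.7, 32.6, 12.2 and 13.5 CPM in the controls, 0.1601, 0, 0.0591 and 0.0568 CPM in Cpt2 L-/- and 0, 0.301, 0.275 and 0.206 CPM in Ppara KO livers. Hist1h2bq was at 5.17, 9.996, 7.24 and 4.63 CPM in controls against 0, 0, 0 and 0.0568 CPM in Cpt2 L-/- livers, and Cd1d2, one of the Cd1 genes of lipid antigen presentation, at 60.7, 40.9, 18.9 and 21.5 CPM against 0.107, 0.254, 0.768 and 0.341 CPM. Histone genes have many near-identical copies, so their counts are uncertain. Tecr, the last enzyme of the elongation cycle, followed the same pattern at 309, 261, 265 and 308 CPM in the controls, 101, 132, 133 and 114 CPM in Cpt2 L-/-, 111, 135, 132 and 108 CPM in Ppara KO and 207, 316, 298 and 277 CPM in DKO livers. Cyp2c39, another of the 12 largest falls, was at 165, 412, 195 and 445 CPM in the controls, 3.74, 2.03, 2.78 and 1.48 CPM in Cpt2 L-/-, 62.3, 3.87, 1.704 and 3.55 CPM in Tsc1 L-/- and 105, 78.1, 59.1 and 90.2 CPM in DKO livers, and it did not pass the test in DKO against Tsc1 L-/- livers (log2 change 2.21, edgeR adjusted p = 0.0772, difference 9.15, edgeR adjusted p = 0.00712).

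**Figure D5:**
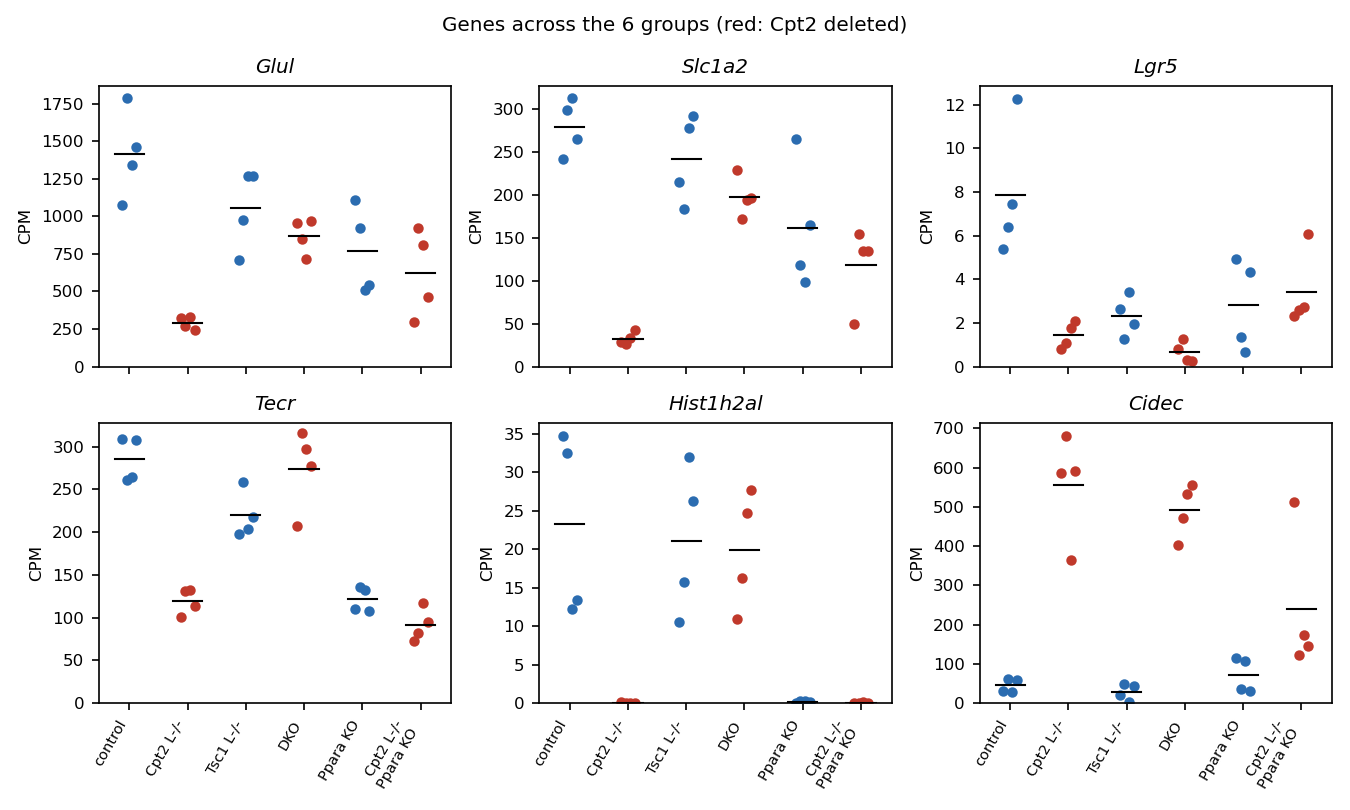
CPM of 6 genes in the 4 livers (points) of each of the 6 groups, with a bar at the mean and red points for groups without Cpt2. The means of Glul and Slc1a2 were lowest in Cpt2 L-/- livers, Tecr and Hist1h2al were low in the Cpt2 L-/-, Ppara KO and Cpt2 L-/- Ppara KO groups and not in DKO livers, and Cidec was high in Cpt2 L-/- and DKO livers.

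Livers without Ppara gave a further setting, with a limit that is stated first. Replicate 1 of the Cpt2 L-/- Ppara KO group stood apart from its group: Ehhadh was at 3618, 132, 154 and 169.8 CPM in its 4 livers, and Ppara itself was at 91.9, 26.2, 46.2 and 41.2 CPM. Whether this library has its labelled genotype is not settled by these values. Between Cpt2 L-/- Ppara KO and Ppara KO livers, 25.5% of 13615 genes were called, 1728 genes without that replicate in place of 3475, and 111 in a fit of these 8 libraries alone, so values without the replicate are given as well. The effect of Cpt2 loss differed with and without Ppara in 24% of the 13615 genes, with that replicate included. Pdk4 was at 22.7, 198, 284 and 16.4 CPM in Ppara KO and 190.5, 51.3, 17.2 and 28.4 CPM in Cpt2 L-/- Ppara KO livers. Its rise in Cpt2 L-/- livers was larger than this change (difference -5.86, edgeR adjusted p = 0.00334, and -7.01 with edgeR adjusted p = 0.00163 without the replicate). Plin2 was at 1234, 499.6, 1064 and 689 CPM against 2781, 931, 759.7 and 1239 CPM, with a difference of -1.99 (edgeR adjusted p = 0.00936, and 0.000376 without the replicate). Cidec was at 115, 37.2, 108 and 30.01 CPM against 513, 123, 175 and 147 CPM, and the difference was called only without the replicate (-1.87 with edgeR adjusted p = 0.0529, and -2.56 with edgeR adjusted p = 0.00768). Atf3 was at 16.5, 31.3, 16.96 and 9.41 CPM against 52.7, 20.1, 36.7 and 40.1 CPM (difference -3.70, edgeR adjusted p = 0.000750, and 0.000903 without the replicate). Cyp7a1 was low in both of these groups, at 28.04, 7.08, 3.71 and 21.6 CPM in Ppara KO and 26.6, 50.2, 18.7 and 5.17 CPM in Cpt2 L-/- Ppara KO livers, with a difference of 5.37 (edgeR adjusted p = 0.00169, and 0.00421 without the replicate). The Ppara KO livers themselves varied, with Pdk4 differing widely among the 4.

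Markers of cell types were read in the same 8 livers. Of 9 hepatocyte markers, 0 were higher and 4 were lower, and their summed level was 77118 to 99258 CPM in controls against 44111 to 70142 CPM in Cpt2 L-/- livers, without overlap. Of 12 markers of Kupffer cells and macrophages, 1 was higher, the lysosomal protein Cd68, at 8.44 ± 1.497 CPM in controls against 34.95 ± 11.97 CPM in Cpt2 L-/- livers (SD, n = 4, edgeR adjusted p = 0.000390). Clec4f, which defines Kupffer cells, was at 86.95 ± 12.7 CPM against 79.7 ± 15.8 CPM (edgeR adjusted p = 0.579). The sum of that list was 405 to 616 CPM in controls against 336 to 602 CPM in Cpt2 L-/- livers. Of 10 markers of lipid-associated macrophages, 3 were higher and 3 were lower, and their sum was 431 to 561 CPM in controls against 579.9 to 623 CPM in Cpt2 L-/- livers, without overlap. Gpnmb, Cd63 and Cd9 were higher, with Gpnmb at 1.695 ± 0.6301 CPM in controls against 20.4 ± 6.68 CPM in Cpt2 L-/- livers (SD, n = 4, edgeR adjusted p = 1.65e-05). Atp6v0d2, Spp1 and Trem2 were lower, with Atp6v0d2 at 3.33 ± 1.52 CPM against 0.178 ± 0.141 CPM (SD, n = 4, edgeR adjusted p = 3.39e-05). Of 15 stellate cell and fibrosis genes, 1 was higher and 4 were lower, and of 12 markers of sinusoidal endothelial cells, 1 was higher and 2 were lower. With a library left out, the numbers were 0 to 1 higher for stellate cells (0 without replicate 2 of either group) and 0 to 1 higher and 1 to 2 lower for endothelial cells (0 higher and 1 lower without control replicate 2, 3 or 4, and 0 higher without Cpt2 L-/- replicate 1 or 3). Markers of monocytes and neutrophils, of cholangiocytes and of red blood cells were not called, and of 5 tested markers of T, B and NK cells 1 was lower. With a library left out, 0 to 3 of the T, B and NK markers were lower (for example 0 without control replicate 4 and 3 without Cpt2 L-/- replicate 3), and 1 red blood cell marker was lower without Cpt2 L-/- replicate 4. The number of T, B and NK markers lower moved by over 1.5 times in 10 of the 15 alternatives. Of the pancreatic acinar markers, 1 passed the filter on low counts and was not called, and no adipocyte or muscle marker passed it. The 6 adipocyte markers summed to 0.0594, 0.2702, 2.47 and 0.867 CPM in controls against 0.4804, 21.04, 0.6498 and 0.625 CPM in Cpt2 L-/- livers, with replicate 2 of Cpt2 L-/- far above the others, and 2 of them were called higher with no filter. Without that replicate, the log2 changes of the fat cell genes Cidec, Slc27a1 and Pparg were 3.47, 2.57 and 0.63, and all 3 were still called. Cd68, Clec4f and the 6 called markers of lipid-associated macrophages were named after their values were seen. The part of these cell types in the results above was not tested.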

How the data were processed

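RNA of liver pieces was sequenced in 24 libraries (single reads, stranded mRNA kit), in 6 groups of 4, and GEO's labels gave the group and the replicate number of each. Each library has a name of its own in the tables and is called a liver here, but the labels do not say in words that replicates are separate animals, or how libraries were batched. Where they are not, p-values measure a spread that may be technical. Within the control and Cpt2 L-/- groups, replicates differed by more than counting noise (chi-square per gene of 30.2 to 75.5). The authors deposited raw read counts per gene and, in a second table, FPKM values (fragments scaled by gene length and library total) made from the same reads. The FPKM values recomputed from the deposited counts matched within 5e-06. The submitters' processing notes name STAR 2.5, HTSeq 0.6.1, TopHat, Bowtie 0.12.2, STAR-Fusion, DESeq2 and edgeR. These notes name older mouse builds, whereas the gene coordinates in the tables match GRCm38. The strand setting of the counting is not given in the sources used here, so overlapping antisense genes cannot be told apart.

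The 16 libraries of the control, Cpt2 L-/-, Tsc1 L-/- and DKO groups were fitted together in edgeR 4.0.16 (R 4.3.3) with TMM scaling, filterByExpr (minimum count 10, minimum total 15) and the quasi-likelihood test, with Benjamini-Hochberg adjustment and a threshold of 0.05. This kept 13641 of 35275 genes. The fit with the Ppara KO groups held 13615 genes. CPM values were scaled by TMM over all 24 libraries. Counts of 0 were replaced by 3 counts over the group for a lower bound of a fold, and counting intervals are 95% intervals. The alternatives were RLE size factors, no filter, DESeq2 1.42.0, limma 3.58.1 on log2(FPKM + 1), other sets of libraries, the replicate number as a block, and each library left out. The 93 genes that part 2 sets of 12 libraries were sought after seeing the data. The tests were tested on simulated data for Cpt2 L-/- against control: of genes changed by 2 on the log2 scale, edgeR recovered 60 of 64, by 1, 31 of 67, and by 0.5, 9 of 67 (13401 genes). Only these genes were changed, and edgeR made 104 calls in the simulation against 4235 in the data. The Benjamini-Hochberg cut is stricter with fewer calls, so these recoveries do not measure what was missed in the data.

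The 33 gene lists and 12 marker lists were written by hand, and they and the comparison were chosen with earlier results of these data known. Named genes were the deleted gene, the 12 largest rises and 12 largest falls among called genes without overlap and averaging 1 CPM or more over the 8 libraries (no Gm, Rik or pseudogene symbols), key members of each list, and the called member with the largest change in each direction of each list, up to 2. The rule gave 173 genes, of which 110 are named with values. Some of the others are not reported here. Promoters are from RefSeq (GRCm38.p6). Plots were drawn with matplotlib 3.10.9, and tables were made with Python 3.11.15, pandas 2.3.3 and scipy 1.17.1.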

Additional observations from a re-analysis of the deposited data

Results flagged for a closer look

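In 14 of 220 groups of 4 values, 1 liver lay far from the other 3 by Dixon's test, which chance does in about 1 of 20 groups. Among Cpt2 L-/- livers, replicate 4 was the highest for Slc7a11 (10.1 CPM), Slc16a1 (120.2 CPM), Pparg (27.6 CPM), Pdp1 (4.26 CPM) and Hist1h2bq (0.0568 CPM). Replicate 1 was the highest for Mogat2 (4.004 CPM) and the lowest for Cpt1a (1255 CPM) and Scd1 (205.1 CPM). Replicate 2 was the highest for E2f1 (1.46 CPM) and replicate 3 the lowest for Btg2 (33.8 CPM). Among control livers, replicate 2 was the highest for Slc27a1 (30.1 CPM). Replicate 4 was the lowest for Angptl4 (163.8 CPM) and the highest for Ucp3 (0.116 CPM) and Fabp3 (0.0578 CPM), which had no counts in the other controls. The flags of Hist1h2bq, Ucp3 and Fabp3 rest on 1 or 2 reads. Their values lie below the level of 3 counts, 0.170 CPM in Cpt2 L-/- replicate 4 and 0.173 CPM in control replicate 4.

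The effect of Cpt2 loss differed with and without Tsc1 in 11 of the named genes, by the test of the difference in edgeR. On the log2 scale, as the effect in Tsc1-deficient livers minus the effect in the others, it was 9.15 for Cyp2c39, 8.12 for Hist1h2al, 7.78 for Hist1h2bq, 6.34 for Cd1d2, 2.83 for Slc1a2, 2.02 for Glul, 1.60 for Tecr and 1.24 for Pex11a. It was -4.89 for Aim1l, -1.55 for Hmox1 and -1.38 for Cyp2f2. Hist1h2al, Hist1h2bq, Cd1d2 and Tecr are among the 93 genes that part the 12 libraries of the Cpt2 L-/-, Ppara KO and Cpt2 L-/- Ppara KO groups from the other 12. The effect of Cpt2 loss also differed with and without Ppara in 24% of genes, and as the effect without Ppara minus the effect with it, this difference was 5.37 for Cyp7a1, 1.97 for Glul, -1.99 for Plin2, -3.70 for Atf3 and -5.86 for Pdk4. In each of these differences, with Tsc1 or with Ppara, the Cpt2 L-/- and control groups lie on opposite sides of that split and the other 2 groups on 1 side, so for all the genes named here a changed effect of Cpt2 loss and a difference between the 2 sets of groups cannot be told apart. No explanation of these values was tested.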

How the results depend on the processing

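The count of genes called between Cpt2 L-/- and control livers was 3426 to 4079 when each library was left out in turn, 4033 with the replicate block, 4588 with DESeq2 and 2798 with all 24 libraries in 1 fit. With limma on log2(FPKM + 1), 65.9% of 4031 calls were higher, against 52.2% in edgeR, and 66% of the calls between DKO and Tsc1 L-/- livers. The number of genes whose Cpt2 effect differed with and without Tsc1, 324, was 752 with DESeq2, 65 with all 24 libraries in 1 fit, 270 with the replicate block and 150 to 403 with a library left out (it was 150 without DKO replicate 2, 199 and 211 without Cpt2 L-/- replicates 4 and 3, and 207 and 206 without control replicates 2 and 4). Between Cpt2 L-/- Ppara KO and Ppara KO livers, 3475 calls became 111 with only the groups of the comparison, and 1728 to 4125 with a library left out (1728 without Cpt2 L-/- Ppara KO replicate 1 and 2142 without Ppara KO replicate 3). The cause was not tested. Of the gene lists, all 24 libraries in 1 fit gave 5 lower in mitochondrial β-oxidation, 3 higher among thioesterases, 1 lower in ω-hydroxylation, 3 higher in glucose handling, 1 lower among pyruvate dehydrogenase genes, 2 lower for Nrf2, 4 higher among nuclear receptors, 1 higher and 2 lower for the clock and 2 higher for autophagy. Limma gave 2 lower in ω-hydroxylation and among pyruvate dehydrogenase genes, 3 lower among nuclear receptors and in the growth hormone and cell cycle lists, and 3 lower in the respiratory chain. DESeq2 gave 7 lower in lipogenesis, 5 higher among hepatokines and 8 higher for p53. The replicate numbers did not pair the samples of the 2 groups (correlations of 0.102, -0.038, -0.0061 and 0.067 for numbers 1 to 4), and they share only a number. Of the 110 genes named, 90 were called and 80 of these kept their call in all 15 alternatives. Of the other 10, 5 lost it with a library left out. Beside these, Acot11 lost its call with limma (adjusted p = 0.0519), as did Cux2 (0.0593), Msmo1 lost it with only the groups of the comparison in edgeR (adjusted p = 0.0505), and Fgf21 (0.0879) and Cycs (0.165) lost it with all 24 libraries. None of the 90 changed sign. Of the 20 not called, 6 were called under an alternative, Cpt1a, Hadha and Cdkn1a with limma, Cdkn1a and Pck1 with DESeq2, and Trib3 and Igf1 with only the groups of the comparison. The genes that changed sign were not called: Cyp8b1 at -0.0774 to 0.453 with a library left out, Angptl4 at -0.155 to 0.0457 with a library left out and 0.0687 with limma, and Cps1 at -0.196 to 0.285 with a library left out, 0.0317 with the replicate block and 0.187 with limma. With 4 livers a group, changes of 0.5 on the log2 scale were mostly missed in simulated data. Far fewer genes were changed there, so the cut was stricter than in the data.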
